A study of Arabidopsis thaliana with 21 samples.

Results

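The libraries labelled At3+ came from an Arabidopsis thaliana line that over-expressed AtIPCS3, and they were set against libraries of the wild-type accession Columbia-0 (Col-0). Of the 21 libraries in the series, 3 carried the label At3+ and 3 the label Col-0. At3+ replicates 1 and 2 held identical values, closer than sampling noise allows, and were counted as 1 library, so that 2 At3+ libraries were compared with 3 Col-0 libraries. The merged library is called library 1 and the other At3+ library is called library 3. The comparison took in all 25263 genes listed, of which 22222 had a mean of at least 1 normalized count over the 20 distinct libraries and were tested. Every At3+ library derived from Col-0 plants transformed by floral dip with the AtIPCS3 coding sequence in the over-expression vector pK7WG2, and Col-0 plants carried no transgene. All seedlings were 10 days old and had grown on agar at 20 °C with 16 h of light and 8 h of darkness, and the time of day of harvest was not given in the sources used here. Per the study's methods the replicates of a line were technical, while the series design speaks of biological replicates for the pair of lines of an isoform. The limma p-values below therefore measure the spread between libraries within a group, estimated over all 7 groups together, and not the spread between transformed lines. Since At3+ is a single transformed line, an effect of AtIPCS3 cannot be told apart from other features of that line. For orientation, the second line of the same isoform (At3++, 3 libraries) and a line over-expressing AtIPCS1 (At1+, 3 libraries) are given beside At3+ for some of the genes.

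Inositol phosphorylceramide synthase (IPCS) moves a phosphoinositol group from phosphatidylinositol onto ceramide, the first step towards the glycosylated inositol phosphorylceramides of the plant plasma membrane. Ceramide and free long-chain bases, which lie before this step, are known in Arabidopsis as triggers of programmed cell death, and mutants of the pathway show altered salicylic acid signalling. Salicylic acid and the jasmonate and ethylene pathways are the main hormonal routes of plant immunity, whereas abscisic acid governs seed maturation and the response to drought and cold.

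The reads counted on genes numbered 15808825 and 17168334 in At3+ and 14592430 to 15330243 in Col-0, within a range of 12733113 to 17210244 over the 20 libraries. Values are normalized counts, the number of reads on a gene divided by a size factor of its library, and whole reads could be recovered for 100% of them. Transcript length enters these values, so that levels are compared between libraries and not between genes. Where all libraries of a group had 0 reads on a gene, a lower bound on the fold was computed from a floor of 3 reads over the group, and bounds and counting intervals cover counting error only. Whether reads were counted by strand is not stated, and genes that overlap on opposite strands cannot be told apart. Among the genes named below this touches AtIPCS3, LEA7, OLEO1, OLEO2, TIP3;1, BDA1, SARD1, FRK1, EARLI1, AZI3, SNRK2.8, LNK1, LNK3, FLC, STO, STH, LHCB2.3, GSTF2 and AT3G20360, and LNK4 overlaps a gene of its own strand. Since these are whole seedlings, fewer cells of a type and less RNA per cell cannot be told apart either.

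AtIPCS3 (AT2G29525), the introduced isoform, lies at chr2:12638284-12640820 on the plus strand of TAIR10.1 and overlaps AT2G08345 and AT2G29530 on the other strand. Its normalized counts were 12859 and 11006 in At3+, 6083, 5445 and 5877 in At3++ and 58.4, 52.3 and 62.3 in Col-0. Both At3+ libraries thus stood above all At3++ libraries, and the Col-0 libraries lay far below both lines. Against Col-0 the transcript was higher in At3+ (log2 fold change 7.67 ± 0.44, limma adjusted p = 4.8e-12). Against At3++ it was also higher in each library, but the contrast was not called (log2 fold change 1.04 ± 0.44, limma adjusted p = 0.099). The standard error of this contrast was estimated over all 7 groups, and not from the At3+ and At3++ libraries alone. The study picked its lines by quantitative PCR of the transcript, with ++ for the line of higher over-expression. The order of the read counts goes against these labels, and At3+ and At3++ therefore stand here for the libraries labelled so. Reads from the transgene and from the native gene cannot be told apart. AtIPCS1, the isoform of chromosome 3, had normalized counts of 229 and 271 in At3+ and 175, 176 and 164 in Col-0, and although the groups did not overlap the difference was under the minimum fold (log2 fold change 0.53 ± 0.13, limma adjusted p = 0.0093). AtIPCS2, on chromosome 2, had 847 and 832 in At3+ and 834, 789 and 845 in Col-0, with overlapping groups (log2 fold change 0.03 ± 0.09, limma adjusted p = 0.9).

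**Figure D1:**
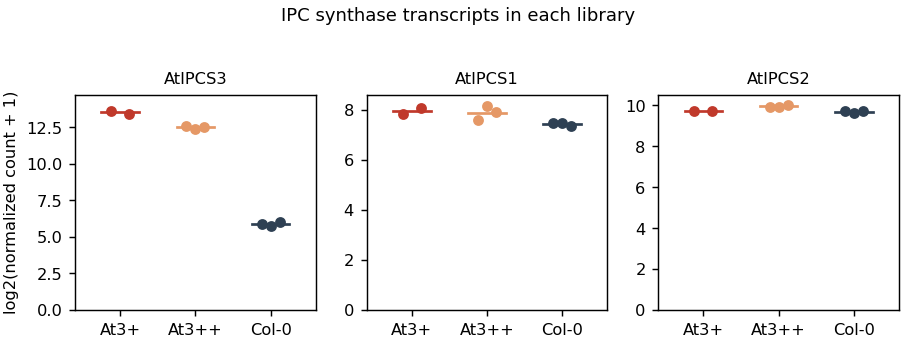
Normalized counts of AtIPCS3, AtIPCS1 and AtIPCS2 on the log2(value + 1) scale (y axis) in each At3+, At3++ and Col-0 library (points), with the group mean as a line. AtIPCS3 stood at 12859 and 11006 normalized counts in At3+, above the 3 At3++ libraries and far above the 3 Col-0 libraries, while the other isoforms ranged from 164 to 1023 normalized counts over these libraries.

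Against Col-0, 263 genes (1.18% of the genes tested) were called lower in At3+ and 132 (0.594%) higher. Calls required an adjusted p (limma, Benjamini-Hochberg) under 0.05 together with a log2 fold change of 1 or more in either direction. Fold changes are on the log2(normalized count + 1) scale, which understates the change of low genes, and ± after a fold change is its standard error. The adjusted p alone was met by 970 lower (4.37%) and 1098 higher genes (4.94%). Counts of list members called below are to be read beside these shares. The median log2 fold change of all genes tested was 0.01. Among the 395 called genes (1.78%), At3+ and Col-0 libraries did not overlap for 393, and over all genes tested they did not overlap for 8994 (40.5%). Of the called genes 359 encode proteins, 13 are long non-coding RNAs, 4 other non-coding RNAs, 6 small nucleolar RNAs and 2 microRNAs, and 11 lie in the organelle genomes. The nuclear ones were spread over all chromosomes, with 100 on chromosome 1, 64 on chromosome 2, 74 on chromosome 3, 57 on chromosome 4 and 89 on chromosome 5. Without At3+ library 1, 79 genes were called higher in place of 132.

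**Figure D2:**
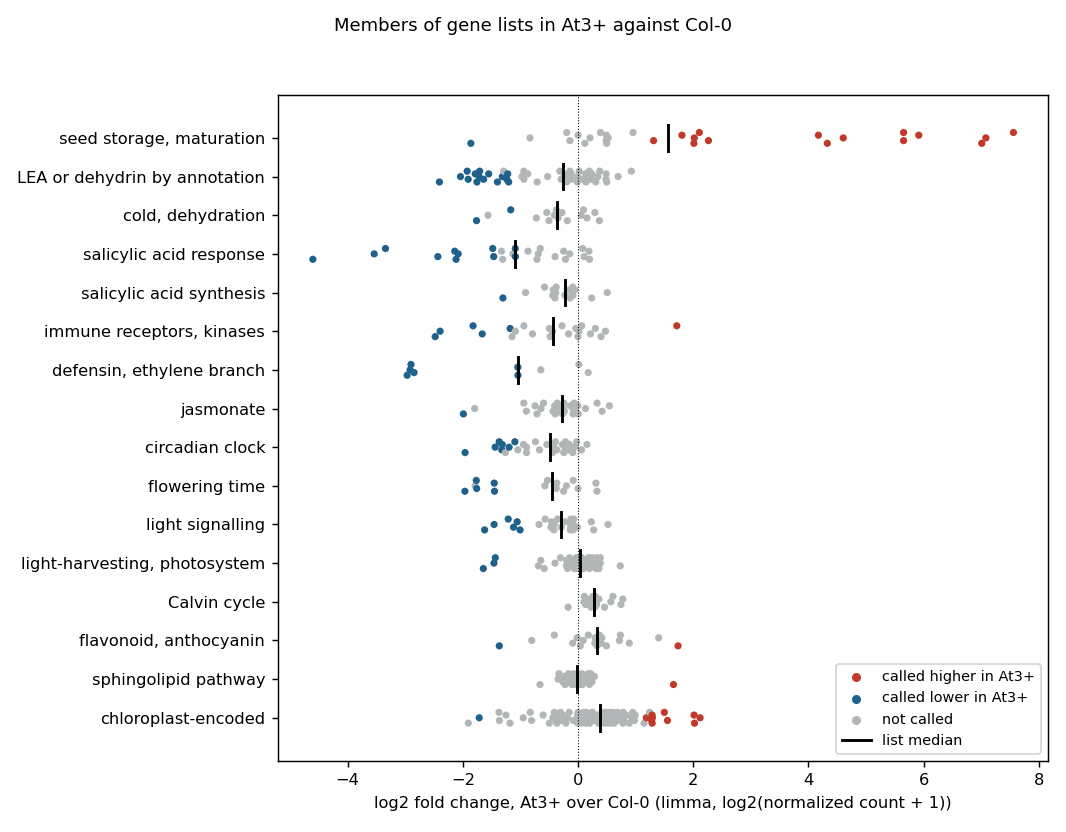
Log2 fold change of At3+ over Col-0 (x axis) for each tested member of 16 gene lists (rows), with members called higher in red, called lower in blue and not called in grey, and the list median as a black line. The 15 called seed members reached up to 7.56, the salicylic acid response list had a median of -1.09, and the sphingolipid list lay around 0.

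Seed storage genes were among the largest rises. Of 31 listed seed genes 28 were tested, 15 were called higher and 1 lower in At3+, and their median log2 fold change was 1.56, against 0.01 over all genes tested. The median was the same when the 4 members with 0 reads in Col-0 were set to their bounds. Leaving out 1 library at a time gave 14 to 16 higher members. These transcripts belong to the maturing embryo and are degraded after germination, and the storage protein and oil-body genes among them are known targets of the B3 regulators ABI3, FUS3 and LEC2, which bind the RY repeat.

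The 250 bases upstream of the annotated start are shown for 3 albumin genes to give the RY repeat (CATGCATG, searched on both strands, in capitals) in its context. Sequences and coordinates are from the TAIR10.1 assembly and are written 5′ to 3′ on the strand of the gene.
SESA5 (chr5:22239188-22239437, minus strand): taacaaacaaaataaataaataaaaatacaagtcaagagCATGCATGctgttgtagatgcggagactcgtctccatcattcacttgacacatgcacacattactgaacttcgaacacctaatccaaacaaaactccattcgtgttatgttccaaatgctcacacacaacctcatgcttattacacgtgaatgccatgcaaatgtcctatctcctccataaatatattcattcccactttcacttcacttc
SESA3 (chr4:13611546-13611795, plus strand): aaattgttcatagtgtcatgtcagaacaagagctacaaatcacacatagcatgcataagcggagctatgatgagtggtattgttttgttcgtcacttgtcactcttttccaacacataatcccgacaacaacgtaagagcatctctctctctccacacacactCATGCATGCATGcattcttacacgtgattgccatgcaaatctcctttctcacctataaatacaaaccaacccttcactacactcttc
SESA4 (chr4:13613346-13613595, plus strand): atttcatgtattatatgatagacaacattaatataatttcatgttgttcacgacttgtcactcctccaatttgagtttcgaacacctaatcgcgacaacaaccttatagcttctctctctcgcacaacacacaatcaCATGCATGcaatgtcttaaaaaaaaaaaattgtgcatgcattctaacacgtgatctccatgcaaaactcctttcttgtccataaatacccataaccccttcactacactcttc
The repeat was present in 6 of the 15 seed members called higher (40%), in 0 of the 13 other tested members, and in 156 of 22092 windows of all nuclear genes tested (0.706%). The seed members were split by their calls in these same data, so these shares are a description and not a test. A match is a stretch of letters and not a shown binding site. The window of SESA3 held it at 2 overlapping positions, shown as a single run of capitals.

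SESA3, an albumin storage protein, had normalized counts of 97.1 and 169 in At3+ and 0, 0 and 0 in Col-0, at least 148-fold higher in At3+ (limma adjusted p = 2.8e-19). Its neighbour SESA2 had 33.0 and 73.5 in At3+ and 0, 0 and 0 in Col-0, at least 59.5-fold higher, and SESA4 had 15.1 and 19.2 in At3+ and 0, 0 and 0 in Col-0, at least 18.9-fold higher. In all 3 albumin genes the Col-0 libraries held no read at all and both At3+ libraries held some. SESA1, which completes this tandem array (chr4:13607329-13614283), had 52.5 and 91.9 in At3+ and 0, 0 and 1.76 in Col-0, a ratio of 120.5 with a counting interval of 32.8 to 1003. SESA1 to SESA4 share sequence, and how reads were split between them is uncertain. SESA5, on chromosome 5, had 126 and 219.8 in At3+ and 0, 0 and 0.878 in Col-0 (ratio 576 with a counting interval of 103 to 22804).

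The cruciferins, globulin storage proteins of the embryo, behaved alike. CRU3 had 166 and 330.0 in At3+ and 0.927, 0 and 0 in Col-0 (ratio 829 with a counting interval of 148 to 32812). CRA1 had 126 and 213 in At3+ and 2.78, 0.935 and 1.76 in Col-0 (log2 fold change 5.92 ± 0.21, limma adjusted p = 2.1e-16). CRU2 had 10.7 and 33.6 in At3+ and 0, 0 and 0 in Col-0, at least 24.9-fold higher. In each of them library 3 of At3+ held more than library 1, and the Col-0 libraries held between 0 and 2.78 normalized counts. Oil bodies were represented by OLEO1, an oleosin that coats them, with 40.1 and 51.9 in At3+ and 0, 0.935 and 2.63 in Col-0 (log2 fold change 4.61 ± 0.31, limma adjusted p = 9.8e-11), and by CLO1, a caleosin with peroxygenase activity, with 8.02 and 8.79 in At3+ and 0.927, 1.87 and 0.878 in Col-0 (log2 fold change 2.11 ± 0.30, limma adjusted p = 3.4e-05). PAP85, a vicilin-like cupin, had 33.0 and 47.1 in At3+ and 11.1, 9.35 and 7.02 in Col-0 (log2 fold change 2.01 ± 0.17, limma adjusted p = 4.7e-09), and TIP3;1, an aquaporin of the protein storage vacuole, had 11.6 and 22.4 in At3+ and 1.85, 7.48 and 0.878 in Col-0 (log2 fold change 2.26 ± 0.36, limma adjusted p = 1.5e-04). Groups did not overlap in any of these 4 genes. OLEO2, with 20.5 and 43.2 in At3+ and 13.9, 14.95 and 7.02 in Col-0, was called (log2 fold change 1.31, limma adjusted p = 0.0025) but not without At3+ library 3 (0.79, adjusted p = 0.18) or Col-0 library 3 (0.998, adjusted p = 0.022, just under the minimum fold). OLEO4 (14.2 and 20.0 in At3+ and 4.64, 2.804 and 5.27 in Col-0, log2 fold change 1.80) and PDF1.1, a defensin of seeds (52.5 and 88.7 in At3+ and 12.1, 19.6 and 17.56 in Col-0, log2 fold change 2.02), complete the members called higher. Also higher was NSP2, a nitrile specifier protein that directs glucosinolate breakdown in seeds (28.5 and 55.9 in At3+ and 1.85, 0 and 1.76 in Col-0, log2 fold change 4.37 ± 0.30, limma adjusted p = 1.2e-10), which was not on the list.

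The other 12 members tested were not called, among them OLEO3, OLEO5, TIP3;2, SUS2 and PER1. ABI3 had 0.52 on the log2 scale (limma adjusted p = 0.44), EM6, a late embryogenesis abundant (LEA) protein, 0.50 (0.38) and M17 0.49 (0.11). ABI5, the bZIP factor of abscisic acid signalling, had -0.84 (0.0036), which was under the minimum fold. EM1 was called lower at very few reads (0 and 0.799 in At3+ and 6.49, 1.87 and 4.39 in Col-0, ratio 0.0989 with a counting interval of 0.00234 to 0.65), and not without At3+ library 1 (-1.44, adjusted p = 0.14). Beside this, 15 of the 48 tested genes annotated as LEA protein or dehydrin (51 listed) were called lower and 0 higher, with a median of -0.27. This annotation list was gathered after values had been seen. By limma's adjusted p alone 19 were lower and 1 higher. The number of lower members was 11 without At3+ library 1 and 15 or 16 without any other library.

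LEA proteins are hydrophilic proteins that accumulate in drying tissues and under abscisic acid. LEA7 had normalized counts of 34.7 and 39.2 in At3+, 180.4, 190.5 and 218 in At3++ and 215, 205 and 182 in Col-0. Both At3+ libraries lay under all others, and At3++ overlapped Col-0. The fall against Col-0 was significant (log2 fold change -2.41 ± 0.17, limma adjusted p = 2.6e-10). LEA18 had 57.9 and 51.1 in At3+, 107, 121 and 109 in At3++ and 268, 195 and 176 in Col-0 (log2 fold change -1.93 ± 0.19, limma adjusted p = 1.2e-07 against Col-0). AT5G44310, a LEA family gene, had 7.12 and 10.4 in At3+, 99.9, 113 and 111 in At3++ and 50.1, 37.4 and 30.7 in Col-0 (log2 fold change -2.04 ± 0.22, limma adjusted p = 4.7e-07 against Col-0), so that At3+ and At3++ lay on opposite sides of Col-0. AT3G15670 showed the same order, with 21.4 and 31.2 in At3+, 233, 273 and 278 in At3++ and 60.3, 62.6 and 59.7 in Col-0 (log2 fold change -1.21 ± 0.18, limma adjusted p = 6.3e-05 against Col-0), and came under the minimum fold without At3+ library 1 (-0.94, adjusted p = 0.011). The dehydrins XERO1 (-1.22, adjusted p = 0.0039; without At3+ library 1 -1.10, adjusted p = 0.08) and LEA (AT2G21490, -1.64, adjusted p = 6.2e-04) were lower too, whereas RAB18 (AT5G66400, -0.14, adjusted p = 0.53), ERD14 (-0.01, adjusted p = 0.95) and LEA14 (-0.12, adjusted p = 0.48) were not called. These named LEA genes were chosen after their values were seen.

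The abscisic acid response element is read by bZIP factors such as ABI5 and was searched as ACGTGTC and ACGTGGC on both strands. Windows were taken as above from LEA or dehydrin genes called lower. Only windows that held the element and overlapped no other gene were considered. Of these, the 3 with the largest falls are shown with every match in capitals, which for LEA18 reads on the other strand.
LEA7 (chr1:19619474-19619723, plus strand): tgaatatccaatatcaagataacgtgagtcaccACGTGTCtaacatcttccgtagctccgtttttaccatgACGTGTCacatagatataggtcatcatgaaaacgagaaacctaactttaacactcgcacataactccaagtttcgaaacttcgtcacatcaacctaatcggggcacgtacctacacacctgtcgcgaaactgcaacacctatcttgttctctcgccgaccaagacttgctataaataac
AT5G44310 (chr5:17849537-17849786, minus strand): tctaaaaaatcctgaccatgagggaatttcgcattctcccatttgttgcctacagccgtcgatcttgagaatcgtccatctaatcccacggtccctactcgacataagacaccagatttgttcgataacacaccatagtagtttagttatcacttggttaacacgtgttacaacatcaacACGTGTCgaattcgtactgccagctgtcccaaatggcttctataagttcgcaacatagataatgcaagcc
LEA18 (chr2:14863413-14863662, minus strand): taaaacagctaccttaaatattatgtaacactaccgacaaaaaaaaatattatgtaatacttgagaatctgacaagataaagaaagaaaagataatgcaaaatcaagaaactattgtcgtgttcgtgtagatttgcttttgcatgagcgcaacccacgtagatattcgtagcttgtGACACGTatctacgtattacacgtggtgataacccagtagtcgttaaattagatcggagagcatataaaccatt
The element was present in 13 of the 15 LEA or dehydrin genes called lower (86.7%), in 6 of the 33 not called, in 41 of the 262 called lower genes with a window (15.6%) and in 1592 of all 22092 windows (7.21%). It can overlap the G-box CACGTG, which was present in 12 of the 15 (80%), in 6 of the 33 and in 1611 of all windows (7.29%). Among the 15 seed members called higher the element was found in 3 (20%) and the G-box in 6 (40%). The LEA list was gathered after values were seen and was split by its calls in these same data. These shares are a description and not a test. No binding was measured, and a cause was not tested.

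**Figure D3:**
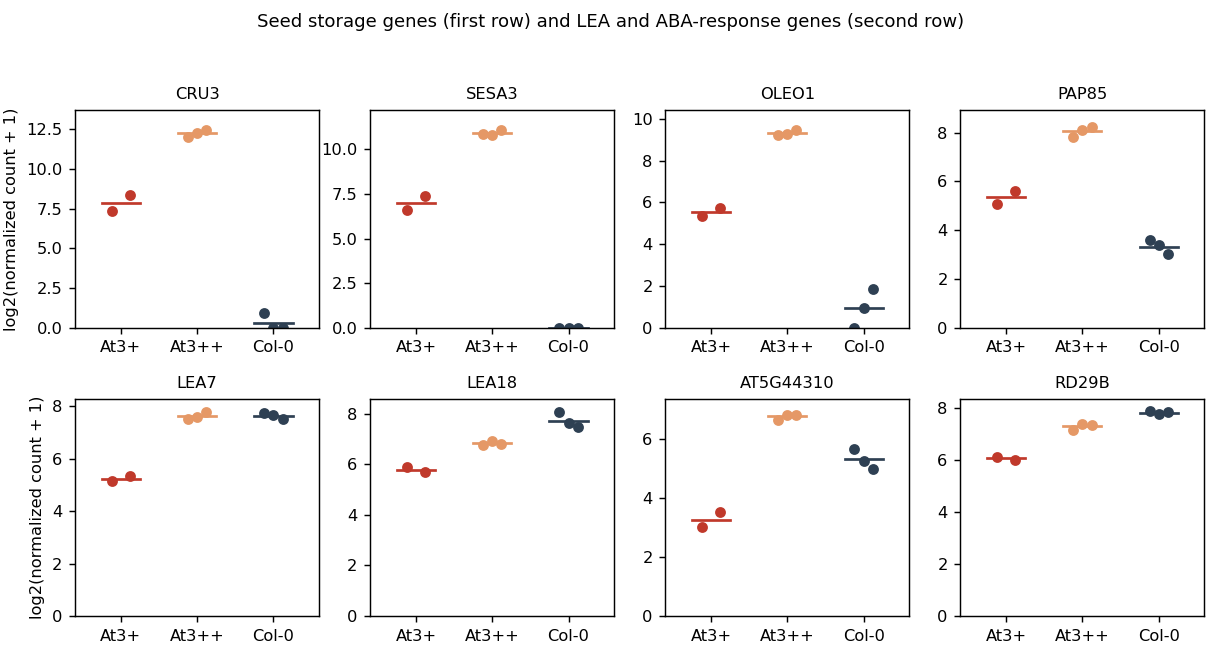
Seed storage genes CRU3, SESA3, OLEO1 and PAP85 (first row) and the genes LEA7, LEA18, AT5G44310 and RD29B (second row) on the log2(normalized count + 1) scale in each At3+, At3++ and Col-0 library (points), with group means as lines. Both At3+ libraries lay between At3++ and Col-0 for the seed genes and below every At3++ and Col-0 library for the lower row, with LEA7 at 34.7 and 39.2 normalized counts in At3+.

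Genes of cold and dehydration changed in part. Of 17 listed, 16 were tested, 2 were called lower and 0 higher, with a median of -0.36, beside 1.18% called lower of all genes tested. RD29B, a hydrophilic protein induced by abscisic acid and desiccation, had 67.7 and 63.1 in At3+, 141, 165 and 159 in At3++ and 232, 215 and 227 in Col-0 (log2 fold change -1.76 ± 0.12, limma adjusted p = 2.4e-10 against Col-0). KIN2, a cold-induced protein, had 1811 and 1587 in At3+, 5374, 4475 and 5274 in At3++ and 4097, 3569 and 3792 in Col-0 (log2 fold change -1.17 ± 0.12, limma adjusted p = 3.2e-07 against Col-0). Both At3+ libraries lay below all At3++ and Col-0 libraries for both genes. At1+ held 152, 128 and 146 for RD29B, above At3+, and 961, 1169.8 and 957 for KIN2, below At3+ (log2 fold change 0.73 ± 0.12, limma adjusted p = 1.0e-04 for At3+ against At1+). RD29A (-0.38, adjusted p = 0.0039) and COR15A (-0.35, adjusted p = 0.034) were under the minimum fold, and the cold regulators CBF1 (-0.72, adjusted p = 0.42) and CBF2 (-1.56, adjusted p = 0.092) had few reads and were not called. Among the 10 SnRK2 kinases, which act in osmotic stress and abscisic acid signalling, SNRK2.8 was the member called lower (168 and 196 in At3+ and 398, 329 and 378 in Col-0, log2 fold change -1.01 ± 0.15, limma adjusted p = 4.8e-05), and its change came under the minimum fold without At3+ library 1 (-0.90, adjusted p = 0.0058), Col-0 library 1 (-0.96, adjusted p = 5.4e-04) or Col-0 library 3 (-0.99, adjusted p = 4.9e-04).

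Part of the salicylic acid response was lower in At3+. Of the 26 genes of this list 11 were called lower and 0 higher, 15 were lower by adjusted p alone, and the median was -1.09. PR1, the secreted protein used as the marker of this hormone, had normalized counts of 63.2 and 75.1 in At3+ and 1771, 1584 and 1754 in Col-0. The At3+ libraries were far below Col-0, and PR1 showed the largest fall of all genes that passed the naming filter (log2 fold change -4.61 ± 0.50, limma adjusted p = 5.7e-07). LURP1, which is needed for resistance to downy mildew, had 116 and 97.5 in At3+ and 1098, 1004 and 1169.6 in Col-0 (log2 fold change -3.34 ± 0.15, limma adjusted p = 2.4e-14). PR2, a glucanase that degrades fungal walls, had 86.4 and 71.9 in At3+ and 312, 338 and 391.6 in Col-0 (log2 fold change -2.12 ± 0.37, limma adjusted p = 3.9e-04). PCC1, a small membrane-associated protein, had 499 and 463 in At3+ and 2118, 1985 and 2016 in Col-0 (log2 fold change -2.08 ± 0.11, limma adjusted p = 1.1e-12). None of these groups overlapped. The ankyrin proteins BDA1 (19.6 and 7.19 in At3+ and 156, 143 and 152 in Col-0, log2 fold change -3.54 ± 0.50, limma adjusted p = 2.9e-05) and ACD6 (675 and 613 in At3+ and 1579.8, 1874 and 1898 in Col-0, log2 fold change -1.47 ± 0.10, limma adjusted p = 1.4e-10) were lower too. WRKY70, a transcription factor that carries salicylic acid signals, had 395 and 352 in At3+ and 788, 749.6 and 850.0 in Col-0 (log2 fold change -1.09 ± 0.09, limma adjusted p = 1.1e-08), and WRKY54 was lower too (-1.09 on the log2 scale, adjusted p = 2.1e-04).

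AED1, an apoplastic aspartyl protease of this response, was also lower (113 and 99.1 in At3+ and 431, 505 and 479 in Col-0, log2 fold change -2.14 ± 0.27, limma adjusted p = 4.8e-06). AIG1 (134 and 79.1 in At3+ and 521, 588 and 574 in Col-0, log2 fold change -2.43 ± 0.52, limma adjusted p = 0.0027) was not called without At3+ library 3 (-2.06, adjusted p = 0.082), and WRKY38 (12.5 and 11.2 in At3+ and 31.5, 25.2 and 52.7 in Col-0, log2 fold change -1.48 ± 0.35, limma adjusted p = 0.0067) was not called without At3+ library 1 (-1.55, adjusted p = 0.053), At3+ library 3 (-1.41, adjusted p = 0.081) or Col-0 library 3 (-1.19, adjusted p = 0.054). The number of lower members was 9 to 11 when libraries were left out. PR5 (-0.87, adjusted p = 2.4e-04) and DMR6 (-0.69, adjusted p = 1.8e-05), an oxygenase that breaks down salicylic acid, were under the minimum fold, and WRKY18, WRKY40 and WRKY53 had values from -0.14 to 0.19. The W-box (TTGACC and TTGACT, both strands), the usual WRKY site, was present in 1 of the 11 lower members (9.09%) and in 6331 of all windows (28.7%). Of 17 genes that make or regulate salicylic acid 1 was called, beside 1.78% of all genes tested. SARD1, the transcription factor upstream of its synthesis, was the member called lower (87.3 and 103 in At3+ and 242, 234 and 232 in Col-0, log2 fold change -1.305 ± 0.14, limma adjusted p = 6.8e-07), and the list median was -0.23. ICS1, the isochorismate synthase that makes most of the hormone, had -0.44 (adjusted p = 0.11), and the receptor NPR1 -0.11 (adjusted p = 0.41).

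Immune receptors and receptor kinases were mixed. Of 23 tested, 5 were called lower and 1 higher, with a median of -0.44, and the lower members numbered 3 without At3+ library 1 and 2 without At3+ library 3. WAK1, a kinase bound to wall pectin, had 227 and 198 in At3+ and 651, 813 and 808 in Col-0 (log2 fold change -1.82 ± 0.11, limma adjusted p = 1.7e-11). FRK1, a receptor kinase induced by bacterial flagellin, was the member called higher, with 103 and 106 in At3+, 15.3, 18.8 and 26.4 in At3++ and 23.2, 36.5 and 36.0 in Col-0 (log2 fold change 1.71 ± 0.33, limma adjusted p = 0.0011 against Col-0). Both At3+ libraries exceeded all At3++ and Col-0 libraries, while At1+ held 93.4, 86.0 and 117, overlapped At3+ and was not called against it (log2 fold change 0.10 ± 0.33, limma adjusted p = 0.88). Each of the 4 remaining lower members lost its call without an At3+ library, with the fold change still negative. With 1 At3+ library left, its spread was taken from the other groups. WAK3 (-2.48, adjusted p = 0.003) was lost without At3+ library 3 (-1.99, adjusted p = 0.1), and CRK4 (-1.66, 0.0031) without the same library (-1.53, adjusted p = 0.062). CRK5 (-1.18, 0.012) was lost without At3+ library 1 (-0.85, adjusted p = 0.26), and CRK7 (-2.395, 0.0063) was lost without either At3+ library (-2.46, adjusted p = 0.058 without library 1 and -2.33, adjusted p = 0.072 without library 3). The flagellin receptor FLS2 (0.30, adjusted p = 0.054), its partner BAK1 (0.01, 0.95) and the oxidase RBOHD (groups overlapping, adjusted p = 1) were not called.

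Antifungal defensins and their regulators in the jasmonate and ethylene branch were lower in most members. Of 9 genes 6 were called lower and 0 higher (median -1.05). PDF1.2B had 26.7 and 16.8 in At3+, 16.3, 9.42 and 8.39 in At3++ and 178, 165 and 157 in Col-0 (log2 fold change -2.92 ± 0.41, limma adjusted p = 2.8e-05 against Col-0), and PDF1.2C had 39.2 and 22.4 in At3+, 9.17, 17.8 and 22.8 in At3++ and 232, 214 and 239 in Col-0 (log2 fold change -2.901 ± 0.46, limma adjusted p = 1.2e-04 against Col-0). The lines did not overlap with Col-0 in either gene. PDF1.2A (-2.97, adjusted p = 0.0023) was lost without At3+ library 3 (-2.55, adjusted p = 0.072), and PDF1.3 (-2.85, 0.013) was lost without library 1 (-3.06, adjusted p = 0.078) or library 3 of At3+ (-2.64, adjusted p = 0.13). These 4 genes are near-identical copies, and their separate values are uncertain. ORA59, the factor that joins both hormones at these promoters, had 88.2 and 70.3 in At3+ and 171, 153 and 167 in Col-0 (log2 fold change -1.04 ± 0.24, limma adjusted p = 0.0061), and was lost without At3+ library 3 (-0.88, adjusted p = 0.12). ERF2, a related factor, had -1.046 (adjusted p = 2.5e-04), and was just under the minimum fold without At3+ library 3 (-0.96, adjusted p = 0.014) or Col-0 library 1 (-0.995, adjusted p = 0.0021). Without At3+ library 3 the list had 2 lower members in place of 6.

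The wider jasmonate list had 1 member called lower and 0 higher of 30 tested (31 listed, median -0.27), and 10 lower by adjusted p alone. Over all genes tested 1.18% were called lower, and 4.37% were lower by adjusted p alone. The number of lower members was 2 without At3+ library 1 and 3 without Col-0 library 1. The called member was TAT3, a tyrosine aminotransferase induced by jasmonate (51.7 and 35.2 in At3+ and 129, 189 and 211 in Col-0, log2 fold change -1.99 ± 0.27, limma adjusted p = 1.5e-05). LOX2, the chloroplast lipoxygenase that opens jasmonate synthesis, had 3815 and 3273 in At3+ and 5467, 7591 and 6878 in Col-0 (log2 fold change -0.90 ± 0.12, limma adjusted p = 2.1e-05), with no overlap but under the minimum fold. VSP1, a storage protein induced by the hormone, had 0.54 (adjusted p = 0.0027). Of the 7 genes of the EARLI1 and AZI1 cluster, lipid transfer-like proteins linked to systemic immunity, EARLI1 was lower (1325 and 1078 in At3+ and 2607, 3290.1 and 2887 in Col-0, log2 fold change -1.29 ± 0.19, limma adjusted p = 7.1e-05), and AZI3 (-2.47, adjusted p = 0.018) was lost without At3+ library 1 (-2.64, adjusted p = 0.097), At3+ library 3 (-2.30, adjusted p = 0.15) or Col-0 library 3 (-2.46, adjusted p = 0.051). AZI1 itself had 0.05 (adjusted p = 0.88).

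**Figure D4:**
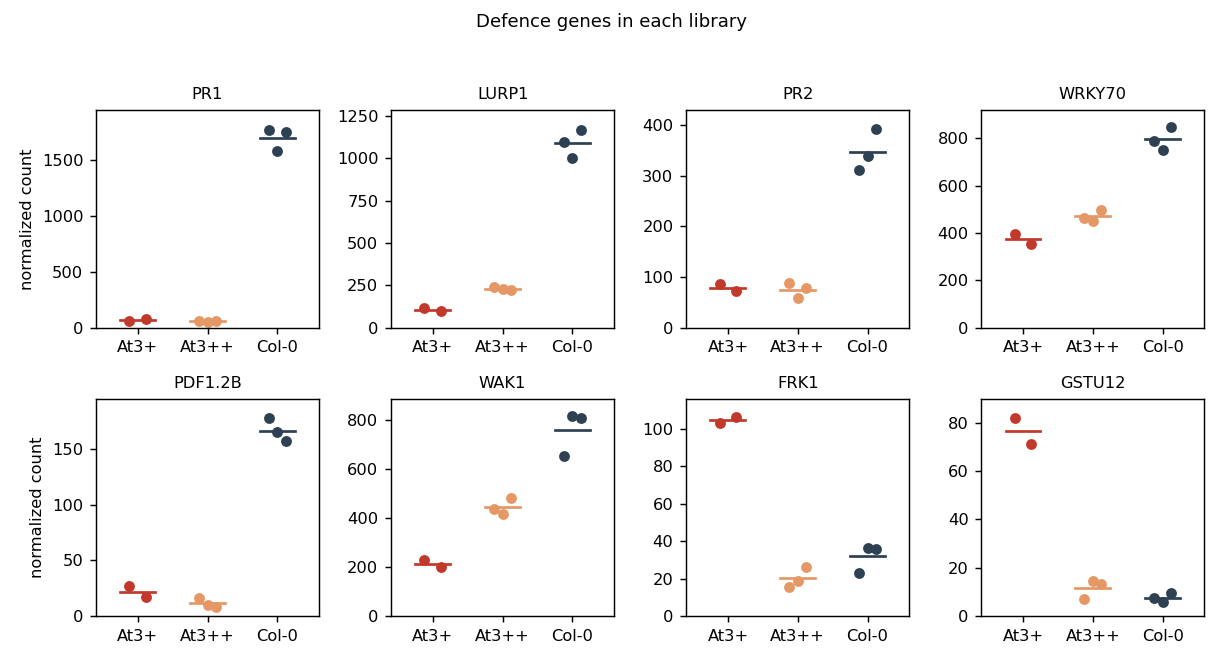
Normalized counts (y axis, from 0) of 8 defence genes in each At3+, At3++ and Col-0 library (points), with group means as lines. PR1, LURP1, PR2, WRKY70, PDF1.2B and WAK1 were lower in At3+ than in every Col-0 library, while FRK1 (103 and 106 in At3+) and GSTU12 (81.9 and 71.1 in At3+) were higher than in every At3++ and Col-0 library.

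GLIP1, GSTU12, AT4G28420 and AT3G20360 were among the genes called higher in At3+. GLIP1, a secreted GDSL lipase of resistance to necrotrophic fungi, had 37.4 and 34.4 in At3+, 4.08, 1.047 and 10.8 in At3++ and 3.71, 3.74 and 4.39 in Col-0 (log2 fold change 2.9003 ± 0.65, limma adjusted p = 0.0043 against Col-0), and was not called without At3+ library 1 (2.84, adjusted p = 0.065). GSTU12, a tau class glutathione transferase, had 81.9 and 71.1 in At3+, 7.14, 14.7 and 13.2 in At3++ and 7.42, 5.61 and 9.66 in Col-0 (log2 fold change 3.20 ± 0.32, limma adjusted p = 1.5e-07 against Col-0). AT4G28420, annotated as a tyrosine transaminase, had 30.3 and 27.2 in At3+, 2.04, 0 and 3.60 in At3++ and 1.85, 0 and 1.76 in Col-0 (log2 fold change 3.90 ± 0.75, limma adjusted p = 0.0011 against Col-0), and AT3G20360, a TRAF-like protein, 27.6 and 29.6 in At3+, 2.04, 2.09 and 3.60 in At3++ and 2.78, 1.87 and 6.15 in Col-0 (log2 fold change 2.79 ± 0.60, limma adjusted p = 0.003 against Col-0). In each of these 4 genes both At3+ libraries stood above all At3++ and Col-0 libraries, and the direct contrast with At3++ was called (2.89, 2.67, 3.62 and 3.08). At1+ held 26.3, 26.5 and 31.9 for GSTU12 and 14.6, 20.9 and 21.3 for AT3G20360, above all Col-0 libraries in both genes. At3+ was higher than At1+ for GSTU12 (log2 fold change 1.41 ± 0.32, limma adjusted p = 0.0022), and the contrast was not called for AT3G20360 (log2 fold change 0.59 ± 0.60, limma adjusted p = 0.55). Further higher genes were chosen after their values were seen. CYP71A12, a cytochrome P450 of tryptophan-derived defence compounds, had 2309 and 1906 in At3+ and 595, 659 and 749.9 in Col-0 (log2 fold change 1.66 ± 0.32, limma adjusted p = 9.7e-04), and ACS7, an enzyme of ethylene synthesis, had 62.3 and 67.1 in At3+ and 12.1, 16.8 and 19.3 in Col-0 (log2 fold change 1.97 ± 0.25, limma adjusted p = 7.0e-06). WRKY30 (1.76, adjusted p = 0.0065) was lost without At3+ library 1 (1.70, adjusted p = 0.087) or library 3 (1.82, adjusted p = 0.058), and CYP82C2 (1.98, adjusted p = 0.031) was lost without any 1 of the 5 libraries.

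Indole glucosinolates and camalexin are defence compounds made from tryptophan. Of the 14 genes of indole glucosinolate and camalexin synthesis 1 was called higher and 0 lower (median 0.22), and 5 were higher by adjusted p alone. Among all genes tested 0.594% were called higher, and 4.94% were higher by adjusted p alone. The called one was CYP79B2, which turns tryptophan into its aldoxime (2182 and 1749 in At3+ and 721, 1055 and 954 in Col-0, log2 fold change 1.12 ± 0.13, limma adjusted p = 1.6e-06), and it came just under the minimum fold without At3+ library 1 or Col-0 library 1 (0.96, adjusted p = 6.0e-04 and 0.96, adjusted p = 9.7e-06). Its paralog CYP79B3 had 0.89 (adjusted p = 7.7e-10) and PAD3, the last enzyme of camalexin synthesis, 0.24 (adjusted p = 0.44). None of the 18 aliphatic glucosinolate genes was called.

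Some clock genes were lower in At3+. Of 30 tested 7 were called lower and 0 higher, 13 were lower by adjusted p alone, 28 had a negative log2 fold change, and the median was -0.49. Among all 22222 genes tested 1.18% were called lower, 4.37% were lower by adjusted p alone, and 10867 had a negative value. PRR5, a repressor of the morning loop, had 188 and 181 in At3+ and 479, 555 and 473 in Col-0 (log2 fold change -1.44 ± 0.12, limma adjusted p = 3.5e-09). GI, the evening gene GIGANTEA that links clock and flowering, had 472 and 465 in At3+, 217, 218 and 198 in At3++ and 1083, 1279.6 and 1168 in Col-0 (log2 fold change -1.32 ± 0.14, limma adjusted p = 3.8e-07 against Col-0). LNK1, a co-activator of evening genes, had 41.0 and 39.96 in At3+ and 144, 166 and 173 in Col-0 (log2 fold change -1.96 ± 0.18, limma adjusted p = 4.4e-08). Groups did not overlap in these genes, and At3+ lay between At3++ and Col-0 for GI. All 3 genes had lower means in At3++ and At1+ than in Col-0 too, as for LNK1 (36.6 and 42.4). RVE2 (799.7 and 910.2 in At3+ and 1998, 1675 and 1820.2 in Col-0, log2 fold change -1.10 ± 0.10, limma adjusted p = 4.3e-08) and RVE7 (102 and 82.3 in At3+ and 254, 228 and 232 in Col-0, log2 fold change -1.37 ± 0.14, limma adjusted p = 1.9e-07) are MYB-like factors of the clock output. LNK4 (-1.20, adjusted p = 0.0039) was lost without At3+ library 1 (-1.04, adjusted p = 0.094), and LNK3 (-1.32, 0.029), with low counts, was lost without any 1 of the 5 libraries, its adjusted p running from 0.05 to 0.27. Of the core loop, CCA1 had 24.0 and 22.4 in At3+ and 56.6, 39.3 and 52.7 in Col-0 (log2 fold change -1.04 ± 0.39, limma adjusted p = 0.1), LHY -0.15 (adjusted p = 0.84) and TOC1 -0.42 (adjusted p = 7.7e-05), where CCA1 did not pass the test and TOC1 passed it under the minimum fold. The evening element (AAAATATCT, both strands) was present in 2 of the 7 lower members (28.6%), 6 of the 23 not called (26.1%) and 535 of all windows (2.42%).

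Flowering-time genes included 5 called lower and 0 higher of 16 tested (18 listed, median -0.45), and the count was 5 with any single library left out. FLC, the MADS-box repressor of flowering, had 29.4 and 26.4 in At3+ and 68.6, 86.9 and 79.9 in Col-0 (log2 fold change -1.46 ± 0.24, limma adjusted p = 1.6e-04). Its relatives MAF4 (27.6 and 30.4 in At3+ and 108, 102 and 94.0 in Col-0, log2 fold change -1.77 ± 0.23, limma adjusted p = 7.2e-06) and MAF5 (10.7 and 9.59 in At3+ and 53.8, 29.0 and 31.6 in Col-0, log2 fold change -1.76 ± 0.37, limma adjusted p = 0.0026) were lower too. CDF1, a DOF factor that represses the flowering gene CO, had 29.4 and 23.2 in At3+ and 104, 97.2 and 114 in Col-0 (log2 fold change -1.97 ± 0.24, limma adjusted p = 3.3e-06), and CDF3 had 83.7 and 95.1 in At3+ and 224, 249.6 and 265 in Col-0 (log2 fold change -1.45 ± 0.18, limma adjusted p = 4.7e-06). At3+ and Col-0 libraries were apart in all 5 genes, and 1.18% of all genes tested were called lower. The means of At3++ and At1+ were also below Col-0 in these genes, as for FLC (34.2 and 31.8) and CDF1 (33.8 and 21.8). The floral integrator SOC1 (-0.53, adjusted p = 0.012) and the repressor SVP (-0.37, 0.0065) were under the minimum fold, and FT, the mobile flowering signal, was at few reads in both groups (2.67 and 3.996 in At3+ and 0.927, 3.74 and 3.51 in Col-0).

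Of 27 tested light signalling genes (30 listed) 6 were called lower and 0 higher (median -0.29), beside 1.18% called lower of all genes tested. HYH, the homologue of the bZIP factor HY5, had 26.7 and 29.6 in At3+ and 85.3, 79.4 and 103 in Col-0 (log2 fold change -1.62 ± 0.29, limma adjusted p = 4.5e-04). PIF4, a phytochrome-interacting factor that drives elongation, had 665 and 654 in At3+ and 1327, 1291 and 1362 in Col-0 (log2 fold change -1.01 ± 0.08, limma adjusted p = 2.1e-09), at the edge of the minimum fold, with -0.99, adjusted p = 9.7e-07 without At3+ library 3 and -0.99, adjusted p = 6.6e-08 without Col-0 library 3. HFR1, which restrains such factors, had -1.21 (adjusted p = 7.4e-04). The B-box protein STO had 399.9 and 391.6 in At3+ and 889, 799 and 789 in Col-0 (log2 fold change -1.06 ± 0.10, limma adjusted p = 1.1e-07). STH (-1.12, adjusted p = 9.1e-04) was lost without At3+ library 3 (-0.90, adjusted p = 0.053), and BBX28 (-1.46, 0.001) was lost without At3+ library 1 (-1.12, adjusted p = 0.069). HY5 itself had -0.41 (adjusted p = 0.064).

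**Figure D5:**
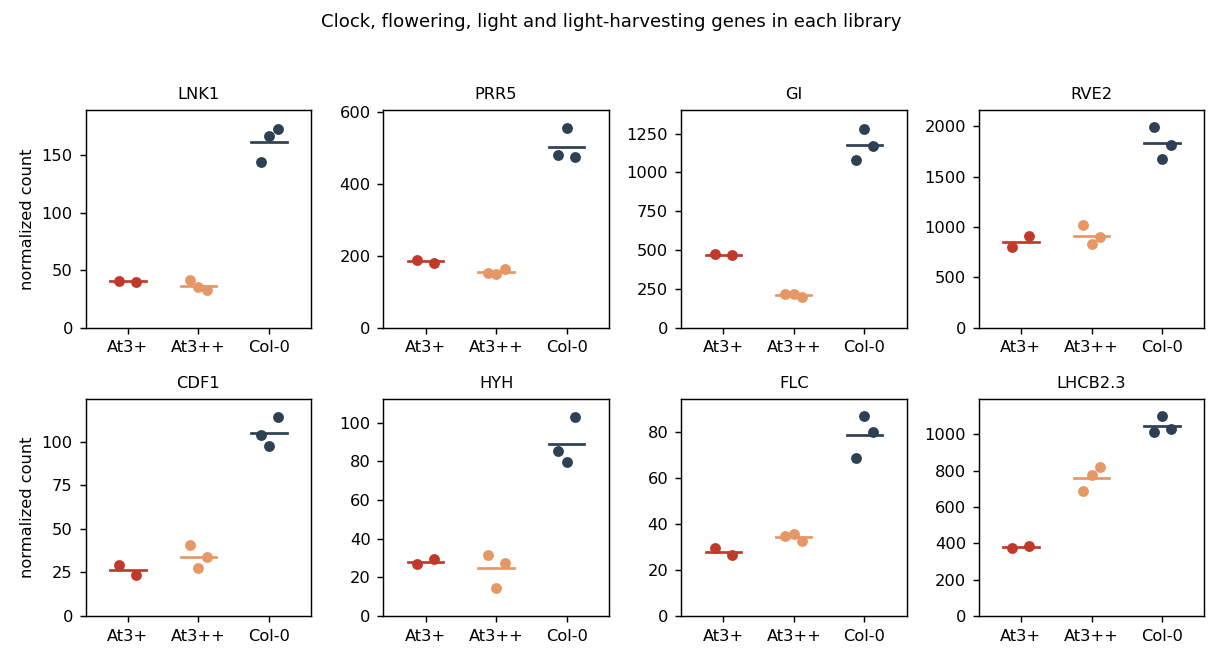
Normalized counts (y axis, from 0) of clock genes LNK1, PRR5, GI and RVE2 (first row) and of CDF1, HYH, FLC and LHCB2.3 (second row) in each At3+, At3++ and Col-0 library (points), with group means as lines. All At3+ libraries lay below all Col-0 libraries, as for GI with 472 and 465 in At3+, and At3+ lay above At3++ for GI and below it for LHCB2.3.

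Nuclear genes of photosynthesis changed in part. Among 49 tested nuclear genes of the photosystems and light-harvesting complexes (50 listed), 3 were called lower and 0 higher, with a median of 0.03. Over all genes tested 1.18% were called lower. All 3 called members encode the LHCB2 protein of the mobile antenna of photosystem II. By limma's adjusted p alone 7 of the 49 were lower and 10 higher, beside 4.37% and 4.94% of all genes tested. LHCB2.3 had 372 and 387 in At3+, 687, 777 and 819 in At3++ and 1011, 1103 and 1027 in Col-0 (log2 fold change -1.46 ± 0.10, limma adjusted p = 9.8e-11 against Col-0). LHCB2.1 (1742 and 1650.2 in At3+ and 4984, 5763 and 5197 in Col-0, log2 fold change -1.65 ± 0.11, limma adjusted p = 9.4e-11) and LHCB2.2 (1769 and 1584 in At3+ and 4346, 4887 and 4387 in Col-0, log2 fold change -1.44 ± 0.10, limma adjusted p = 4.6e-10) are near-identical and their split is uncertain. LHCB1.3, of the LHCB1 antenna proteins, was not called (0.07, adjusted p = 0.9). The Calvin cycle had 0 of 20 genes called and a median of 0.28, with 19 positive values and 9 higher by adjusted p alone, among them the Rubisco small subunit gene RBCS2B (37174 and 37146 in At3+ and 22457, 22742 and 21327 in Col-0, log2 fold change 0.75 ± 0.11, limma adjusted p = 4.3e-05). Of 12 genes of chlorophyll synthesis PORA, a light-dependent oxidoreductase of etiolated seedlings, was lower (6.23 and 7.99 in At3+ and 23.2, 29.0 and 17.56 in Col-0, log2 fold change -1.56 ± 0.34, limma adjusted p = 0.0038), and was lost without At3+ library 1 (-1.40, adjusted p = 0.077).

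Of 102 listed chloroplast-encoded genes 92 were tested, and 10 were called higher and 1 lower in At3+ (median 0.37). Among all genes tested 0.594% were called higher and 1.18% lower. ATCG01110, subunit H of the NDH complex, had 33.8 and 33.6 in At3+, 496, 442 and 312 in At3++ and 7.42, 7.48 and 6.15 in Col-0 (log2 fold change 2.12 ± 0.34, limma adjusted p = 1.5e-04 against Col-0). ATCG00270, the photosystem II protein D2, had 220.0 and 189 in At3+, 1022, 948 and 899 in At3++ and 59.3, 153 and 77.3 in Col-0 (log2 fold change 1.19 ± 0.33, limma adjusted p = 0.022 against Col-0). The At3+ libraries lay above Col-0 but far below At3++. The other 8 higher members had log2 fold changes between 1.28 (ATCG00770) and 2.02 (ATCG00820). The number of higher members changed with single libraries, to 2 without At3+ library 1, 9 without At3+ library 3, 7 without Col-0 library 1, 5 without Col-0 library 3 and 17 without Col-0 library 2, and edgeR on the recovered reads called 0 and DESeq2 6. ATCG00270, for instance, was lost when any of At3+ library 1 (1.08, adjusted p = 0.2), At3+ library 3 (1.296, adjusted p = 0.093), Col-0 library 1 (0.90, adjusted p = 0.13) or Col-0 library 3 (1.09, adjusted p = 0.087) was left out. ATCG01020 was the lower one (33.8 and 34.4 in At3+ and 122, 105 and 117 in Col-0, log2 fold change -1.72 ± 0.45, limma adjusted p = 0.015), and was lost without either At3+ library (-1.71, adjusted p = 0.12 and -1.73, adjusted p = 0.1). Chloroplast genes took 0.0698% and 0.0502% of the reads in At3+, 0.192% to 0.241% in At3++ and 0.0339%, 0.0687% and 0.0330% in Col-0. The libraries were made from mRNA, and how evenly they sampled chloroplast transcripts was not tested. Chloroplast transcript levels and library preparation can therefore not be told apart, also in the contrasts with At3++ and At1+. At3+ overlapped Col-0 (exact two-sided permutation test, p = 0.5, where 0.1 is the smallest possible), and the Wilson 95% interval of At3+ library 1 ran from 0.0685% to 0.0711%. Mitochondrial genes took 0.0242% and 0.0209% in At3+ and 0.0183%, 0.0296% and 0.0169% in Col-0 (exact p = 1), and 0 of the 37 tested (71 listed) were called.

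Of the sphingolipid pathway itself 1 gene was called. Of 37 listed genes 36 were tested, 0 were called lower and 1 higher, beside 1.78% of all genes called in either direction, and the median was -0.01. The called gene was GINT1, which adds an amino sugar in the synthesis of glycosylated sphingolipids, at very few reads (2.67 and 3.20 in At3+ and 0.927, 0 and 0 in Col-0, ratio 9.69 with a counting interval of 1.25 to 437). It was lost without either At3+ library (log2 fold changes 1.75 and 1.56), Col-0 library 2 (limma adjusted p = 0.1) or Col-0 library 3 (limma adjusted p = 0.12). IPUT1, the next enzyme after IPCS, had 1030.4 and 1000.5 in At3+ and 963, 1066 and 1038 in Col-0 (log2 fold change -0.01 ± 0.07, limma adjusted p = 0.97). The serine palmitoyltransferase subunits LCB1 (0.02, adjusted p = 0.94) and LCB2A (0.07, 0.64), which open the pathway, and the ceramide synthases LOH1 (-0.07, 0.73), LOH2 (-0.03, 0.91) and LOH3 (0.17, 0.52) did not pass the test. By adjusted p alone SPP1, which removes phosphate from long-chain base phosphates, was lower (511 and 551 in At3+ and 877, 796 and 846 in Col-0, log2 fold change -0.66 ± 0.08, limma adjusted p = 4.8e-06), as was the desaturase ADS2 (-0.35, adjusted p = 0.0062).

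Of 21 tested flavonoid and anthocyanin genes (24 listed), 1 was lower and 1 higher, with a median of 0.33. MYBL2, a repressor of anthocyanin synthesis, had 191 and 230.1 in At3+ and 562, 532 and 537 in Col-0 (log2 fold change -1.37 ± 0.11, limma adjusted p = 4.3e-09). DFR, dihydroflavonol reductase, had 16.0 and 10.4 in At3+, 47.9, 55.5 and 56.3 in At3++ and 1.85, 3.74 and 4.39 in Col-0 (log2 fold change 1.74 ± 0.50, limma adjusted p = 0.027 against Col-0), and was not called without At3+ library 1 (1.45, adjusted p = 0.27), At3+ library 3 (2.03, adjusted p = 0.075) or Col-0 library 1 (1.46, adjusted p = 0.11). CHS, the chalcone synthase that opens the pathway, had 0.72 (adjusted p = 1.9e-04) and FLS1, flavonol synthase, 0.89 (adjusted p = 6.9e-04), both under the minimum fold. Among the phi class glutathione transferases GSTF2 was the member called lower of 7 (245 and 205 in At3+ and 844, 622 and 697 in Col-0, log2 fold change -1.67 ± 0.26, limma adjusted p = 9.5e-05), and these genes share sequence.

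Outside the lists, the rule of the 15 largest changes in each direction among the 290 called genes that passed the naming filter brought up genes of less known function. Among the falls were AT3G29633 (0.891 and 0.799 in At3+ and 29.7, 29.0 and 27.2 in Col-0, ratio 0.0295 with a counting interval of 0.00352 to 0.109), AT1G75945 (log2 fold change -3.80 ± 0.51, limma adjusted p = 1.3e-05) and the ankyrin gene AT4G03450 (log2 fold change -2.76 ± 0.56, limma adjusted p = 0.0017), and among the rises AT1G68250 (log2 fold change 3.22 ± 0.25, limma adjusted p = 2.1e-09). AT1G67105, a non-coding RNA, had 16.9 and 10.4 in At3+ and 314, 278 and 285 in Col-0 (log2 fold change -4.36 ± 0.21, limma adjusted p = 1.9e-13). PCR1, a membrane protein of cadmium resistance, had 57.0 and 47.1 in At3+ and 875, 813 and 928 in Col-0 (log2 fold change -4.04 ± 0.33, limma adjusted p = 3.7e-09). CYP97B3, of the cytochrome P450 family that holds carotenoid hydroxylases, had 161 and 193 in At3+ and 1127, 1069 and 1163 in Col-0 (log2 fold change -2.66 ± 0.11, limma adjusted p = 8.6e-15). No At3+ library came near a Col-0 library in these genes. The falls were shared with At3++ and At1+, whose means were 42.4 and 34.9 for AT1G67105 and 53.6 and 128 for PCR1. For CYP97B3 these means were 246 and 217. AT3G28540, a P-loop ATPase, had 32.1 and 32.8 in At3+ and 248, 263 and 331 in Col-0 (log2 fold change -3.06 ± 0.38, limma adjusted p = 3.8e-06). AT1G33950, next to AIG1 and of its family, had 0.891 and 0 in At3+ and 18.5, 20.6 and 26.3 in Col-0, a ratio of 0.0192 with a counting interval of 0.00048 to 0.111. On the other side AT3G01345, an uncharacterized protein, had 3497 and 3670.4 in At3+, 3055, 3475 and 3291 in At3++ and 34.3, 22.4 and 24.6 in Col-0 (log2 fold change 7.02 ± 0.22, limma adjusted p = 2.0e-17 against Col-0), so that both lines stood far above Col-0 and near each other. At1+ held 2713, 2637 and 2931, also far above Col-0, and At3+ was not called against it (log2 fold change 0.38 ± 0.22, limma adjusted p = 0.26).

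Called genes lay side by side in 4 runs of 3 or more neighbours changed in the same direction. The SESA array is described above. CYP705A2 (2.51), CYP705A3 (3.18) and BARS1 (2.72), the baruol synthase of triterpene metabolism, were higher at chr4:8762832-8779685. AT1G14940, AT1G14950 and AT1G14960, of a polyketide cyclase-like family, were higher at chr1:5154537-5160179, AT1G14950 with 21.4 and 23.2 in At3+, 244, 283 and 302 in At3++ and 0, 0.935 and 0.878 in Col-0 and a ratio over Col-0 of 36.7 with a counting interval of 9.67 to 311. AT1G24145, AT1G24147 and AT1G24148 were lower at chr1:8540838-8545590 (-1.98, -2.63 and -1.21).

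No member was called in the lists of heat shock (11 genes), dark and sugar starvation (16), phosphate (15), iron (13), sulfate (9) or nitrate response (8) or lipid transfer proteins (7). Marker genes of other cell types were read across the groups. The 10 root markers summed to 1687 to 1799 normalized counts in At3+ and 1554 to 1666 in Col-0. The 6 vascular markers summed to 2892 to 3339.7 in At3+ and 2815 to 3663 in Col-0, and the 4 guard cell markers to 560.2 to 592 in At3+ and 564 to 644 in Col-0. The 3 markers of dividing cells summed to 1023 to 1077 in At3+ and 848 to 1009 in Col-0. No gene of these 4 lists was called, and the root and vascular markers of a whole seedling were found in both groups. Of 4 flower markers 1 passed the filter and was not called, and AP1, AP3 and AG were at or near 0. SAG13, a marker of senescence, was lower (53.4 and 39.96 in At3+ and 143, 165 and 140.5 in Col-0, log2 fold change -1.67 ± 0.41, limma adjusted p = 0.0086) and was not called without At3+ library 3 (-1.46, adjusted p = 0.13). The summed seed genes stood at 1293 to 2027 in At3+, 19711 to 24076 in At3++ and 604 to 659 in Col-0.

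Set directly against At3++, At3+ had 653 genes called lower (2.94%) and 172 higher (0.774%), 825 in all (3.71%). Of the seed list 23 of 28 members were lower, 0 were higher and the median was -3.52, beside a median of 0.01 over all genes. SESA2 had 33.0 and 73.5 in At3+ and 1201, 1258 and 1426 in At3++ (log2 fold change -4.68 ± 0.25, limma adjusted p = 7.9e-13), and CRU3 had 166 and 330.0 in At3+ and 4210.2, 4934 and 5490.1 in At3++ (log2 fold change -4.37 ± 0.24, limma adjusted p = 1.3e-12). Of the LEA and dehydrin genes 20 of 48 were lower (median -0.81), and 74 of 92 chloroplast-encoded genes were lower (median -2.08). The limit on chloroplast reads given above holds here too. Of 18 aliphatic glucosinolate genes 9 were lower. EPR1 (AT2G27380), a proline-rich extensin, had 45.4 and 69.5 in At3+, 1104, 1269.6 and 1619 in At3++ and 14.8, 14.0 and 8.78 in Col-0, MLP31 had 2.67 and 0.799 in At3+, 85.6, 70.1 and 95.9 in At3++ and 0, 0 and 0.878 in Col-0 and the glycine-rich AT2G05580 had 13.4 and 21.6 in At3+, 427, 344 and 403 in At3++ and 0.927, 0.935 and 1.76 in Col-0. At3+ was far below At3++ in all of them, and near Col-0 for MLP31, whose call against Col-0 (1.06, adjusted p = 0.041, ratio 5.54 with a counting interval of 0.548 to 273) was lost without At3+ library 1 (0.54, adjusted p = 0.58), Col-0 library 1 (0.91, adjusted p = 0.14) or Col-0 library 2 (0.91, adjusted p = 0.12). In the other direction 5 of 30 clock genes were higher in At3+, namely CCA1, PRR7, LNK2, GI and LNK4, with GI at 1.15 (adjusted p = 1.1e-06) and LNK4 at 1.73 (2.5e-05). The salicylic acid response had 3 lower and 1 higher of 26 (median 0.12). ACD6 (1786, 1701 and 1820.5 in At3++) and LURP1 (239, 229 and 225 in At3++) were lower in At3+ than in At3++ (log2 fold changes -1.46, adjusted p = 7.1e-11 and -1.11, 4.2e-06), as was PCC1 (-1.24, 8.2e-09), WRKY53 was higher (1.09, 7.9e-04), and PR1 was not called (0.31, 0.71). AT1G07367, a non-coding RNA at Col-0 level in At3+, had 32.1 and 32.8 in At3+, 3.06, 2.09 and 2.397 in At3++ and 30.6, 36.5 and 30.7 in Col-0.

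Set against At1+, 294 genes were lower (1.32%) and 231 higher (1.04%) in At3+, 525 in all (2.36%), with a median of 0.00298 over all genes, and 151 were higher without At3+ library 1. Besides the introduced genes AtIPCS1 (-6.15) and AtIPCS3 (7.48), 13 of 18 aliphatic glucosinolate genes were higher in At3+ (median 1.42), among them CYP79F1, which turns chain-elongated methionine into its aldoxime (log2 fold change 2.61 ± 0.16, limma adjusted p = 2.0e-11), while 15 of 28 seed genes (median -1.06), 16 of 48 LEA and dehydrin genes (median -0.34) and 59 of 92 chloroplast-encoded genes (median -1.41) were lower. Dark and sugar starvation genes, not called against Col-0, were lower in 7 of 16. The defensin-like gene AT1G13609 had 453 and 581 in At3+ and 523, 422 and 521 in Col-0, with overlap, and was higher than in At1+ (log2 fold change 2.78 ± 0.18, limma adjusted p = 6.3e-11). The salicylic acid response list had 0 of 26 called in either direction. The fold changes of these contrasts do not use the Col-0 libraries, which the comparisons of all lines with Col-0 share, while the spread behind their p-values was estimated over all groups.

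The 2 At3+ libraries differed little from each other over most genes. Seed genes were an exception, with CRU3 at 166 in library 1 and 330 in library 3, and SESA3 at 97.1 and 169. The summed seed genes ran from 1293 to 2027 between these libraries. Among 17953 genes with a mean of at least 20 in At3+, 39 differed by at least 1 on the log2 scale, and the median absolute difference was 0.10. Pairs of Col-0 libraries had 78, 43 and 32 such genes of 18011. The 5 genes with the largest difference within At3+ were RNS3, TED7, AT4G18425, DMP2 and TED6. RNS3, a ribonuclease, had 101 and 21.6 in At3+ and 15.8, 78.5 and 51.8 in Col-0 (log2 fold change 0.21 ± 0.65, limma adjusted p = 0.91), and TED7, a protein of secondary walls in tracheary elements, had 97.1 and 22.4 in At3+ and 13.9, 87.9 and 53.6 in Col-0 (log2 fold change 0.20 ± 0.71, limma adjusted p = 0.92). TED6 had 231 and 65.5 in At3+ and 43.6, 192 and 117 in Col-0, DMP2 147 and 40.8 in At3+ and 37.1, 141 and 65.0 in Col-0 and AT4G18425 37.4 and 9.59 in At3+ and 7.42, 35.5 and 9.66 in Col-0. Col-0 varied in the same genes, with library 1 low and library 2 high in each, and none was called against Col-0.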

How the data were processed

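RNA of whole seedlings was made into stranded mRNA libraries and sequenced. Per the study's methods, reads were trimmed with Trimmomatic, aligned with STAR to the Araport genome release of 2017 and counted with HTSeq-count. The authors deposited normalized counts from DESeq2, a signal in reads divided by the size factor of a library, for 25263 genes, of which 14 are 0 throughout. Values were within 0.01 of a whole number of reads for 100% of entries, at 12733113 to 17210244 reads per library.

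Samples were grouped by GEO's labels. All 7 groups, 20 distinct libraries, entered a single limma 3.58.1 model (R 4.3.3) of log2(value + 1) with a variance trend and no covariate. It covered the 22222 genes whose mean reached 1. Fold changes are At3+ over the other group. Calls required a limma p, after Benjamini-Hochberg adjustment, below the threshold of 0.05 and a change of 1 or more on the log2 scale in either direction. The scripts were tested on simulated data. Organelle shares were compared by exact permutation. No set test was run, and lists are described by counts and medians.

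Named genes are the 3 AtIPCS genes, called list members, the 15 largest falls and rises among called genes with a mean of at least 20 and no overlap, the 5 largest differences each way against At3++ and At1+, and the 5 genes most different between the At3+ libraries. Genes named outside this rule, among them list members that were not called, were chosen after their values were seen. The comparison, the lists and the rule were chosen with earlier results of these data known. Names, coordinates and upstream windows came from RefSeq's TAIR10.1 annotation, which matched 25090 of 25263 IDs, while the build of the files is given only as Araport. Alternatives were pseudocounts of 0.1 and 5, no filter and a mean of at least 10, scaling over nuclear genes or by TMM, only the libraries compared, a replicate block, the identical libraries counted as 2, other fold minimums, each library left out, and edgeR 4.0.16 and DESeq2 1.42.0 on the recovered reads. With 1 At3+ library left, its spread was taken from the other groups. Genes such as SLD2, MYC2, HSD1, LEC1 and SAG12 were not analysed here.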

Additional observations from a re-analysis of the deposited data

Results flagged for a closer look

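Results are given here where the difference between At3+ and another over-expressing line was itself tested and called. The tests are direct limma contrasts, whose fold changes do not use Col-0 and whose spread was estimated over all groups. Groups of 2 or 3 libraries were not searched for single outlying libraries.

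Against At3++, 653 genes were lower and 172 higher in At3+. The largest falls were MLP31 (-5.03, limma adjusted p = 2.4e-11), a major latex-like protein, SESA2 (-4.68, 7.9e-13), EPR1 (AT2G27380, -4.52, 2.6e-13), AT2G05580 (-4.44, 1.6e-12) and CRU3 (-4.37, 1.3e-12). The largest rises were AT4G28420 (3.62, 8.9e-04), AT1G07367 (3.26, 1.0e-05), AT3G20360 (3.08, 4.8e-04), GLIP1 (2.89, 0.0019) and GSTU12 (2.67, 9.2e-07). In each of these 10 genes all libraries of At3+ lay on the same side of all libraries of At3++.

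Against At1+, 294 genes were lower and 231 higher in At3+. The introduced genes led, with AtIPCS1 at -6.15 and AtIPCS3 at 7.48. Then came GLIP1 (3.66, limma adjusted p = 1.8e-04), AT1G13609 (2.78, 6.3e-11), CYP79F1 (2.61, 2.0e-11) and AT4G28420 (2.58, 0.014) on the higher side. On the lower side were the chloroplast genes ATCG00760 (-3.33), ATCG00770 (-2.96), ATCG00800 (-2.89) and ATCG00820 (-2.87). Chloroplast genes as a whole took 0.109%, 0.146% and 0.203% of the reads in At1+, above the 0.0698% and 0.0502% in At3+. The At1+ libraries also varied, with ATCG00800 at 235, 716 and 1002 normalized counts.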

How the results depend on the processing

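Depth and replication set the limits, since At3+ rested on 2 distinct libraries and low genes on few reads. Of 116 named genes other than AtIPCS3, 104 were called and 65 of these were called in the same direction under all of the 17 alternatives that tested them. The AtIPCS3 rise over Col-0 held under all of them. With each library left out, 177 to 236 genes were lower and 79 to 132 higher in At3+ than in Col-0, 513 to 631 lower and 115 to 179 higher than in At3++, and 238 to 289 lower and 151 to 243 higher than in At1+. Without a minimum fold, 970 genes were lower and 1098 higher than in Col-0, 2878 and 1999 than in At3++, and 2504 and 2378 than in At1+. With a minimum log2 fold change of 2, these numbers were 61 and 45, 217 and 30, and 31 and 24. A pseudocount of 5 left 120 genes higher than in At1+.

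edgeR on the recovered reads called 298 genes lower and 115 higher than in Col-0 and DESeq2 241 and 104, sharing 347 and 321 calls with the 395 of limma. Of the 116 named genes, 12 lost their call in edgeR and 7 in DESeq2, 11 with a pseudocount of 0.1 and 6 with a pseudocount of 5. Whether replicate numbers paired the libraries could not be decided. Deviations of same-numbered At3+ and Col-0 libraries from their group means correlated at -0.23, 0.20 and -0.06, with the merged library counted under both of its numbers. With 2 At3+ libraries the deviations of 1 mirror those of the other, so that the signs of these values are tied. With the replicate number as a block, 249 and 115, or 246 and 121, genes were lower and higher, depending on the number given to the merged library. Scaling over nuclear genes or by TMM moved the median of all genes by 0.001 and 0.007.

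The mitochondrial share difference of 0.000968 percentage points ran from -0.00140 to 0.00497 with a library left out. Genes that changed sign were not called. AT1G07367 had 0.00328 under TMM and 0.109 under the block with the merged library as number 1. With a library left out, log2 fold changes ran from -0.000278 to 0.0490 for AtIPCS2, -0.0452 to 0.0775 for AT1G07367, -0.101 to 0.256 for AT1G13609, -0.248 to 0.0391 for CYP79F1, -0.87 to 1.2997 for RNS3, -0.83 to 1.24 for TED7, -0.49 to 1.37 for AT4G18425, -0.76 to 1.06 for DMP2 and -0.59 to 1.21 for TED6. The causes were not tested.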
